A study of Homo sapiens with 12 samples.

Results

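The tumour suppressor p53 is a transcription factor that is stabilized by DNA damage, and its target genes carry out most of what it does to a damaged cell. Some of these genes stop the cell cycle or start apoptosis, some repair DNA or adjust metabolism, and some, MDM2 first among them, feed back on p53 itself. MCF10A, an immortalized human breast epithelial line that does not form tumours, is known to keep a working p53 response, and ionizing radiation is a classical activator of p53. The data described here are the mRNA levels of 36 p53 target genes out of the 60675 genes of the deposited table, taken as the rows whose symbol is on a list of well-known targets. All 36 were in the table.

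The 12 RNA libraries fall into 6 groups of 2. Wild-type (WT) cells and cells labelled as knockouts of IL1R1 (IL1R1-KO) or of IL1RAP (IL1RAP-KO) were left unirradiated, or received 20 Gy in one dose of radiotherapy (RT), and the irradiated groups carry RT after the genotype. Interleukin-1 is bound by IL1R1, and signalling requires IL1RAP, the co-receptor. Each KO line was a pool of puromycin-selected cells made with a Cas9 and guide plasmid (pLentiCRISPRv2) rather than a clone, and which guide a library carries was not stated. The study calls the libraries of a group biological replicates. The time from irradiation to RNA extraction was not stated, so the values are 1 time point of unknown position in the p53 response.

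Values are TPM, a unit that corrects read numbers for gene length and for the size of the library. They were scaled again between libraries by a trimmed mean, and levels below are in scaled TPM. Log2 fold changes are differences of log2(scaled TPM + 1), which understate the change of low genes. Calls of a gene as higher or lower needed an adjusted p below 0.05 (limma, Benjamini-Hochberg over all 15303 genes tested) and more than a 2-fold change, and all 36 targets passed the filter for testing (a minimum TPM of 1 in 2 or more libraries). In WT and labelled IL1R1-KO cells, IL1RAP mRNA was at 18.04 and 20.7 and at 17.8 and 19.4 scaled TPM, against 4.41 and 4.97 in IL1RAP-KO cells. IL1R1 mRNA was at 10.7 and 9.46 in WT and 11.03 and 7.81 in the libraries labelled IL1R1-KO, so it was not lower there, and TPM per gene do not show an insertion or deletion. The name IL1R1-KO is used below as the label of these libraries. Mitochondrially encoded mRNAs made up 18.3% to 21.1% of TPM in untreated libraries and 36.9% to 57.0% after RT, the most in IL1RAP-KO RT replicate 2. The IL1RAP-KO RT pair stands apart: the log2 values of its 2 libraries correlated at 0.972, against 0.982 to 0.989 in the other 5 groups. The median absolute log2 difference of the 36 targets within that pair was 0.21, against 0.07 to 0.17 in the other 5 groups. For all genes it was 0.25, against 0.11 to 0.15 in the other 5 groups. These values belong to the pair and do not show which of its libraries departs. Calls that were lost without IL1RAP-KO RT replicate 2, and values of named targets that moved most without it, are given also without it. All 10 epithelial markers examined, KRT5, KRT14 and EPCAM among them, were detected in every library.

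p53 binds DNA as a tetramer, and its response element is a pair of half-sites of 10 bases, each made of 3 purines, a C, a pair of A or T bases, a G and 3 pyrimidines. The element reads the same on both strands. It was searched within 5 kb of each side of the RefSeq start site (GRCh38), with no spacer between the half-sites, the C at position 4 and the G at position 7 of both half-sites kept, and at most 2 mismatches elsewhere. RefSeq promoter entries were found for 27 targets, and 14 of them (51.9%) had such a match, against 7.68% of 15843 protein-coding genes. With at most 1 mismatch the shares were 18.5% and 1.11%. Within the 300 bases around the start site (250 before and 50 after), 1 target, AEN, had a match (3.7%, against 0.221%). The list was made of well-known p53 targets, so these shares describe chosen genes and are not a test. Sequences are shown for the targets that had a match and were called after RT in any genotype, for the perfect matches (ZMAT3 and PLK2), and for CCNG1, which was lower after RT. Each is written on the gene's strand with the C to G core of each half-site in capitals.
CDKN1A chr6:36676449-36676468 (+): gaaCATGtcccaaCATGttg
MDM2 chr12:68808923-68808942 (+): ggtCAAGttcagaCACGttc
GDF15 chr19:18385308-18385327 (+): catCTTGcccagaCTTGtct
PMAIP1 chr18:59899549-59899568 (+): gggCTTGtttaccCAAGtct
SPATA18 chr4:52051957-52051976 (+): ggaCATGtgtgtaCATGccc
EDA2R chrX:66638713-66638732 (-): gaaCATGcctggaCGTGtcc
ZMAT3 chr3:179070188-179070207 (-): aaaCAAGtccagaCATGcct
PLK2 chr5:58462274-58462293 (-): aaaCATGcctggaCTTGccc
CCNG1 chr5:163437926-163437945 (+): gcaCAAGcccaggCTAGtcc

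Measured from its centre, the CDKN1A match lies 2256 bases upstream of the RefSeq start site, at the first exon of a longer transcript in GENCODE v44, and has the same core, CATG, in both half-sites. In MDM2 the match is 760 bases downstream, in an intron. In GDF15 it is 841 bases upstream, before the canonical transcript, and in PMAIP1 438 bases upstream, outside the gene. SPATA18, EDA2R, ZMAT3 and CCNG1 have theirs downstream of the start (662, 547, 1612 and 364 bases), each in an intron of the canonical transcript, and PLK2 has one 2197 bases upstream. EDA2R and CCNG1 each had another intronic match, with 2 mismatches. The matches of ZMAT3 and PLK2 have no mismatch, which is true of 0.158% of protein-coding genes. A match describes the letters in the window and not binding, which was not measured. No entry was found for CMBL, FBXO22, GADD45A, PHLDA3, RRM2B, TNFRSF10A, TNFRSF10B, TNFRSF10D and TP53INP1.

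After 20 Gy, 7 of the 36 targets were called higher in WT cells (CDKN1A, GDF15, PMAIP1, SPATA18, SUSD6, MDM2 and RRM2B), where 7.02% of all genes tested were called higher. None was called lower (6.23% of all genes; 3 targets at an unadjusted p under 0.05 in limma, against 27.1% of all genes). In cells labelled IL1R1-KO, 9 targets were higher (background 7.97%), with GADD45A, XPC, EDA2R and BBC3 in place of SUSD6 and MDM2. CMBL was the 1 target called lower (background 8.35%), and 4 were lower at an unadjusted p under 0.05 (background 29%). In IL1RAP-KO cells 8 were higher (background 8.09%) and none lower (background 9.33%; 5 at an unadjusted p under 0.05, background 29.9%). TIGAR was called in this genotype. CDKN1A, GDF15, PMAIP1 and SPATA18 passed the test in all 3 genotypes. Over the mean of the 3 genotypes 7 were higher (background 6.57%) and none lower (background 7.21%; 5 at an unadjusted p under 0.05, background 35.2%). The called targets span arrest, apoptosis, repair, mitochondrial upkeep and a secreted factor, while most death receptors and apoptosis effectors changed by less than the fold threshold.

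The median log2 fold change of the 36 targets was 0.36 in WT cells, 0.57 under the IL1R1-KO label and 0.30 in IL1RAP-KO cells, and the median of all genes tested was 0.00 in each. Above 0 were 30, 28 and 25 of the 36 targets, against 49.9%, 50.1% and 49.6% of all genes. With a fold change over 1.5 as the threshold, 14, 17 and 16 targets were higher (background 14.7%, 16.8% and 16.9%) and 2, 2 and 3 were lower (background 15.3%, 18.2% and 19.8%). Over the mean of the genotypes the same threshold gave 16 higher (background 17.6%) and 3 lower (background 17.7%). In 16 of the 36 targets all 6 irradiated libraries lay above all 6 untreated libraries, which was so for 18% of all genes. In 4 (CCNG1, CMBL, FDXR and TRIAP1) they lay below, as for 23.2% of all genes. Fewer cells of a state and less RNA per cell cannot be told apart in bulk RNA.

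**Figure D1:**
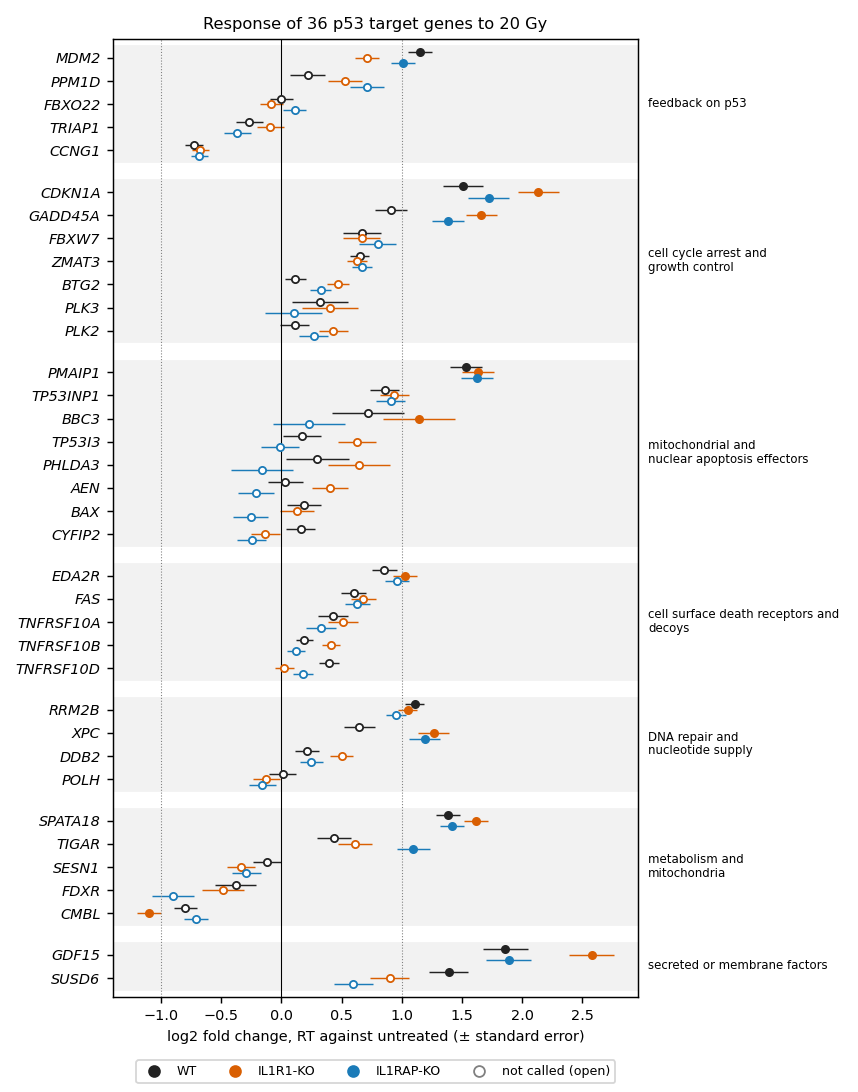
Log2 fold change of each of the 36 p53 target genes after 20 Gy against untreated cells of the same genotype, by role, with the standard error as a bar. Filled points passed the test (adjusted p under 0.05 and fold over 2, dotted lines); CDKN1A, GDF15, PMAIP1 and SPATA18 are filled in all 3 genotypes, and CMBL is the only target filled on the lower side, in cells labelled IL1R1-KO.

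Of the 5 targets that feed back on p53, MDM2 was called higher in WT and IL1RAP-KO cells and none was called lower in any genotype. MDM2 (ENSG00000135679; chromosome 12, 68808177 to 68845544) encodes the ubiquitin ligase that marks p53 for degradation. Its untreated libraries were at 177 and 185 scaled TPM in WT cells, 169.8 and 191 under the IL1R1-KO label and 157 and 179 in IL1RAP-KO cells. After RT its levels were 424 and 382 in the WT RT libraries, 284 and 307 for IL1R1-KO RT and 322 and 355 for IL1RAP-KO RT, above every untreated library, and the WT RT pair was the highest. MDM2 had a log2 fold change of 1.15 in WT cells, 0.71 under the IL1R1-KO label and 1.01 in IL1RAP-KO cells (standard error 0.10 for each; adjusted p = 1.7e-05, 0.00026 and 2.9e-05). With TPM as deposited the values were 0.89, 0.74 and 0.67, under the fold threshold in each, and scaled to nuclear protein-coding genes they were 1.27, 1.19 and 1.42, over it in each. The call in IL1RAP-KO cells was also lost without IL1RAP-KO RT replicate 2 (0.94) and without IL1RAP-KO replicate 1. MDM2 exons share 5.29% of their bases with an unnamed gene on the same strand (ENSG00000256664, mean 214 scaled TPM), so reads may have been split between them.

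CCNG1, cyclin G1, which recruits a phosphatase to MDM2, had the highest level of the 36 targets in untreated cells and was lower in every irradiated library. There MDM2 exceeded it in the mean of each group, by little in IL1R1-KO RT (296 and 295 scaled TPM). In IL1R1-KO RT replicate 1, CCNG1 was the higher (288, against 284 for MDM2). Its untreated libraries ranged from 451 to 528 scaled TPM, and the irradiated ones from 288 to 331. The log2 fold change was -0.73 in WT cells, -0.67 under the IL1R1-KO label and -0.68 in IL1RAP-KO cells, which is under the threshold of a fold of 2 (adjusted p = 3.9e-05, 4.3e-05 and 4.2e-05). Scaled to nuclear protein-coding genes the values were -0.61, -0.19 and -0.27, and with TPM as deposited they were -0.99, -0.64 and -1.02, the last of which was called. PPM1D, the phosphatase WIP1 that switches off damage signalling, had log2 fold changes of 0.22 in WT cells, 0.53 under the IL1R1-KO label and 0.71 in IL1RAP-KO cells. TRIAP1, an inhibitor of apoptosis, changed by -0.27, -0.09 and -0.37 on the same scale without a call, and FBXO22, an F-box protein of a ubiquitin ligase, stayed between -0.08 and 0.11. Exons of FBXO22 share 16.2% of their bases with NRG4 on the other strand.

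The 7 genes of cell cycle arrest and growth control had log2 fold changes from 0.10 to 2.13 in the 3 genotypes, and CDKN1A and GADD45A passed the test. CDKN1A (ENSG00000124762; chromosome 6, 36676460 to 36687337) encodes p21, the inhibitor of cyclin-dependent kinases through which p53 arrests the cycle. It was at 77.6 and 75.7 scaled TPM in WT cells, 102 and 75.9 under the IL1R1-KO label and 78.8 and 76.5 in IL1RAP-KO cells. After 20 Gy it was at 216 and 223 in the WT RT libraries, 389.7 and 387 for IL1R1-KO RT and 313 and 213 for IL1RAP-KO RT. No irradiated library overlapped an untreated one, and the IL1R1-KO RT pair stood above all others. The fold was 2.84 in WT cells, 4.39 under the IL1R1-KO label and 3.30 in IL1RAP-KO cells (log2 1.51, 2.13 and 1.72; standard error 0.17 for each; adjusted p = 8.6e-05, 7.2e-06 and 2.9e-05). The IL1RAP-KO log2 value was 2.00 without RT replicate 2 and 1.44 without RT replicate 1. GADD45A (ENSG00000116717; chromosome 1, 67685201 to 67688334), a small stress sensor that binds cyclin B kinase and PCNA, was at 25.1 and 25.5 scaled TPM in WT cells, 20.1 and 25.96 under the IL1R1-KO label and 25.6 and 24.4 in IL1RAP-KO cells. Its irradiated levels were 52.5 and 44.8 in the WT RT libraries, 69.5 and 79.6 for IL1R1-KO RT and 63.04 and 71.2 for IL1RAP-KO RT, with WT RT the lowest of the 3 groups. Its log2 fold change was 0.91 in WT cells, 1.66 under the IL1R1-KO label and 1.39 in IL1RAP-KO cells (standard error 0.13 for each; adjusted p = 0.00044, 7.3e-06 and 2.4e-05), and the WT value was under the fold threshold.

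FBXW7, the substrate receptor of a ubiquitin ligase for cyclin E and MYC, had log2 fold changes of 0.67 in WT cells, 0.67 under the IL1R1-KO label and 0.80 in IL1RAP-KO cells. In IL1RAP-KO cells it was 0.55 without RT replicate 2 and 1.04, then called, without RT replicate 1. ZMAT3, a zinc-finger RNA-binding protein whose response element matched without mismatch, had 0.65 in WT cells, 0.63 under the IL1R1-KO label and 0.67 in IL1RAP-KO cells. Its untreated libraries lay between 39.3 and 42.6 scaled TPM and its irradiated libraries between 58.2 and 71.3, so the groups did not overlap although the fold stayed under 2. BTG2, an antiproliferative protein, reached 0.12, 0.47 and 0.32, and the polo-like kinases PLK2 and PLK3 stayed at or under 0.43. The lowest of these values, 0.10 for PLK3 in IL1RAP-KO cells, was 0.48 without RT replicate 2 and -0.28 without RT replicate 1. PLK2, with the other perfect match, was at 36.3 and 37.3 scaled TPM in WT and 39.1 and 40.5 in WT RT libraries.

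**Figure D2:**
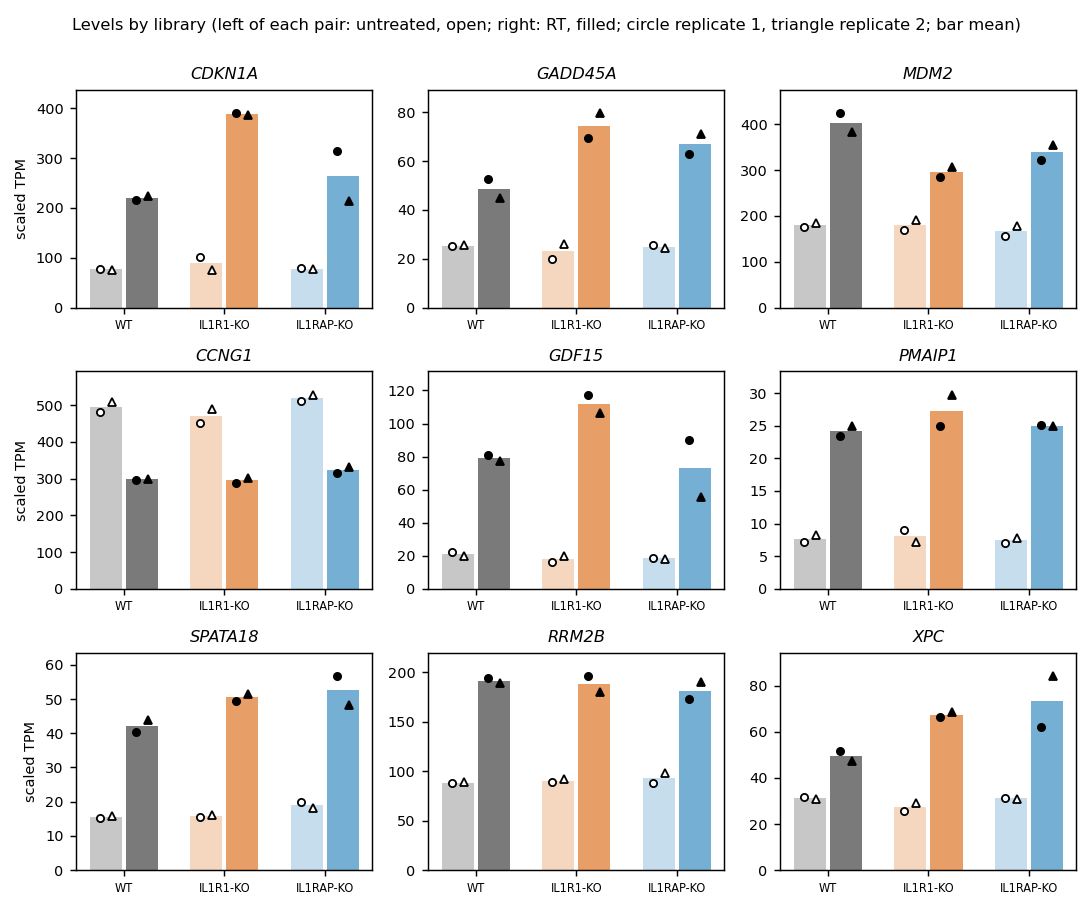
Scaled TPM in each library of 9 p53 target genes, untreated (pale bars, open points) and after 20 Gy (dark bars, filled points); bars are means of 2 libraries. CDKN1A goes from 75.7 to 102 scaled TPM untreated to 213 to 390 after RT, while CCNG1 goes from 451 to 528 down to 288 to 331.

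Among the 8 apoptosis effectors PMAIP1 was called in every genotype, BBC3 in cells labelled IL1R1-KO, and none was called lower. PMAIP1 (ENSG00000141682; chromosome 18, 59899996 to 59904305) encodes NOXA, a BH3-only protein that neutralizes MCL1. Its levels were 7.14 and 8.21 scaled TPM in WT cells, 9.06 and 7.23 under the IL1R1-KO label and 7.05 and 7.78 in IL1RAP-KO cells. They rose to 23.3 and 24.9 in the WT RT libraries, 24.9 and 29.7 for IL1R1-KO RT and 25.1 and 24.9 for IL1RAP-KO RT, a range that did not overlap the untreated one. The log2 fold change of PMAIP1 was 1.54 in WT cells, 1.63 under the IL1R1-KO label and 1.63 in IL1RAP-KO cells (standard error 0.13 for each; adjusted p = 1.8e-05, 8.8e-06 and 9.5e-06). BBC3 (ENSG00000105327; chromosome 19, 47220822 to 47232766), which encodes PUMA, the other BH3-only protein of the list, was the lowest-expressed target, at 3.45 and 2.76 scaled TPM in WT cells, 2.39 and 2.997 under the IL1R1-KO label and 3.12 and 3.3 in IL1RAP-KO cells. Irradiated, it was at 6.08 and 5.38 in the WT RT libraries, 6.7 and 7.56 for IL1R1-KO RT and 6.3 and 2.34 for IL1RAP-KO RT. IL1RAP-KO RT replicate 2 was below every untreated library, and the other 5 irradiated libraries were above all of them. Log2 fold changes of BBC3 were 0.72 in WT cells, 1.14 under the IL1R1-KO label and 0.23 in IL1RAP-KO cells (standard error 0.30 for each; adjusted p = 0.078, 0.01 and 0.55), and without IL1RAP-KO RT replicate 2 the last of these was 0.79. The call in cells labelled IL1R1-KO was lost without IL1R1-KO replicate 1 and without IL1R1-KO RT replicate 2.

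BAX, the pore-forming member of the BCL2 family, was at 91.4 and 78.8 scaled TPM in WT and 95.3 and 98.6 in WT RT libraries. Its log2 fold change was 0.19 in WT cells, 0.13 under the IL1R1-KO label and -0.26 in IL1RAP-KO cells, with no call, and the last of these was 0.00 without IL1RAP-KO RT replicate 2. TP53INP1, a stress protein that acts on p53 and autophagy, had 0.86 in WT cells, 0.94 under the IL1R1-KO label and 0.91 in IL1RAP-KO cells, and all 6 irradiated libraries were above the untreated ones. TP53I3 (a quinone oxidoreductase), PHLDA3 (an inhibitor of AKT) and AEN (a nuclease) were highest in cells labelled IL1R1-KO, at 0.63, 0.64 and 0.40, and lowest in IL1RAP-KO cells, at -0.01, -0.16 and -0.21. The low values rested on IL1RAP-KO RT replicate 2: PHLDA3 was at 66.5 and 31.7 scaled TPM in the pair, and without replicate 2 the 3 log2 values were 0.26, 0.36 and 0.02. CYFIP2, a protein of the actin-regulating WAVE complex, ranged from -0.24 to 0.16.

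None of the 5 cell surface receptors was called in WT or IL1RAP-KO cells, and EDA2R was called in cells labelled IL1R1-KO. EDA2R (ENSG00000131080; chromosome X, 66595637 to 66639298), a receptor of the TNF receptor family for ectodysplasin A2, was at 11.03 and 11.6 scaled TPM in WT cells, 11.1 and 11.7 under the IL1R1-KO label and 11.3 and 13.3 in IL1RAP-KO cells. After RT it was at 21.6 and 21.1 in the WT RT libraries, 23.9 and 24.7 for IL1R1-KO RT and 25.3 and 24.4 for IL1RAP-KO RT. Each irradiated library was at least 21.1 scaled TPM and each untreated one at most 13.3. Its log2 fold change was 0.86 in WT cells, 1.03 under the IL1R1-KO label and 0.96 in IL1RAP-KO cells (standard error 0.10 for each; adjusted p = 0.00011, 2.6e-05 and 4.1e-05), so the 3 values lie just on either side of the fold threshold. FAS, the receptor of FAS ligand, had log2 fold changes of 0.60 in WT cells, 0.68 under the IL1R1-KO label and 0.63 in IL1RAP-KO cells, with untreated libraries at 60.3 to 77.4 and irradiated ones at 107 to 122 scaled TPM. The TRAIL death receptors TNFRSF10A and TNFRSF10B had at most 0.51 and 0.41, and the decoy TNFRSF10D at most 0.40. TNFRSF10A, TNFRSF10B and TNFRSF10D are similar paralogs, so reads could be assigned between them with error.

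Of the 4 genes of DNA repair and nucleotide supply, RRM2B was called in WT and labelled IL1R1-KO cells and XPC in both KO lines, and DDB2 and POLH were not called. RRM2B (ENSG00000048392; chromosome 8, 102204502 to 102238961) encodes p53R2, the ribonucleotide reductase subunit that supplies deoxynucleotides outside S phase. Its levels were 87.6 and 89.2 scaled TPM in WT cells, 89.1 and 91.6 under the IL1R1-KO label and 88.3 and 98.1 in IL1RAP-KO cells, and 194 and 189 in the WT RT libraries, 196 and 180.0 for IL1R1-KO RT and 173 and 189.6 for IL1RAP-KO RT. The irradiated libraries of the 3 genotypes overlapped one another and none overlapped an untreated library. Log2 fold changes of RRM2B were 1.11 in WT cells, 1.05 under the IL1R1-KO label and 0.95 in IL1RAP-KO cells (standard error 0.08 for each; adjusted p = 6.4e-06, 6.1e-06 and 1.2e-05), and with TPM as deposited the WT value was 0.84. XPC (ENSG00000154767; chromosome 3, 14145147 to 14178621), which recognizes lesions for nucleotide excision repair, was at 31.7 and 30.8 scaled TPM in WT cells, 25.8 and 29.3 under the IL1R1-KO label and 31.4 and 31.03 in IL1RAP-KO cells. It was at 51.8 and 47.4 in the WT RT libraries, 66.5 and 68.6 for IL1R1-KO RT and 62.4 and 84.4 for IL1RAP-KO RT. WT RT was the lowest irradiated group, with no overlap with the others. XPC had log2 fold changes of 0.65 in WT cells, 1.27 under the IL1R1-KO label and 1.19 in IL1RAP-KO cells (standard error 0.13 for each; adjusted p = 0.0028, 3.3e-05 and 5.2e-05). Without IL1RAP-KO RT replicate 2, in which XPC was highest, the IL1RAP-KO value was 0.97. XPC-AS1, on the other strand, covers 24.6% of XPC exon bases. DDB2, a lesion sensor of the same pathway, had 0.21 in WT cells, 0.50 under the IL1R1-KO label and 0.25 in IL1RAP-KO cells, and POLH, the translesion polymerase eta, ranged from -0.16 to 0.01.

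The 5 genes of metabolism and mitochondria did not move together: SPATA18 was called higher in all 3 genotypes and CMBL lower in 1. SPATA18 (ENSG00000163071; chromosome 4, 52051304 to 52097299), also known as MIEAP, takes part in mitochondrial quality control. It was at 15.2 and 15.8 scaled TPM in WT cells, 15.6 and 15.99 under the IL1R1-KO label and 19.9 and 18.1 in IL1RAP-KO cells. Irradiated levels were 40.3 and 43.9 in the WT RT libraries, 49.4 and 51.6 for IL1R1-KO RT and 56.8 and 48.4 for IL1RAP-KO RT, all above 40 scaled TPM. SPATA18 had a log2 fold change of 1.39 in WT cells, 1.62 under the IL1R1-KO label and 1.42 in IL1RAP-KO cells (standard error 0.10 for each; adjusted p = 5.8e-06, 1.7e-06 and 3.8e-06). TIGAR (ENSG00000078237; chromosome 12, 4307763 to 4360028), a phosphatase that lowers glycolytic flux, was at 22.1 and 20.5 scaled TPM in WT cells, 21.5 and 19.5 under the IL1R1-KO label and 15.6 and 17.8 in IL1RAP-KO cells, and at 25.6 and 33.2 in the WT RT libraries, 30.9 and 32.8 for IL1R1-KO RT and 40.7 and 33.4 for IL1RAP-KO RT. It was lowest in both untreated IL1RAP-KO libraries and highest in both irradiated ones, in RT replicate 2 by little (33.4, against 33.2 in WT RT replicate 2). Log2 fold changes of TIGAR were 0.44 in WT cells, 0.61 under the IL1R1-KO label and 1.10 in IL1RAP-KO cells (standard error 0.14 for each; adjusted p = 0.03, 0.0053 and 0.00015). The call in IL1RAP-KO cells was lost without IL1RAP-KO RT replicate 1 and with TPM as deposited. TIGAR shares 18.1% of its exon bases with an unnamed gene on the same strand (ENSG00000285901).

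CMBL (ENSG00000164237; chromosome 5, 10275875 to 10307902), a hydrolase, was at 50.05 and 48.6 scaled TPM in WT cells, 57.9 and 52.2 under the IL1R1-KO label and 49.1 and 51.9 in IL1RAP-KO cells. It was at 29.6 and 26.4 in the WT RT libraries, 23.6 and 26.7 for IL1R1-KO RT and 31.7 and 29.2 for IL1RAP-KO RT, below every untreated library. Its log2 fold change was -0.80 in WT cells, -1.10 under the IL1R1-KO label and -0.71 in IL1RAP-KO cells (standard error 0.10 for each; adjusted p = 0.00016, 1.5e-05 and 0.00024). Scaled to nuclear protein-coding genes the value in cells labelled IL1R1-KO was -0.63, under the fold threshold. FDXR, the mitochondrial ferredoxin reductase, had log2 fold changes of -0.38 in WT cells, -0.48 under the IL1R1-KO label and -0.90 in IL1RAP-KO cells, with adjusted p = 0.1, 0.042 and 0.0018 and no call. Its IL1RAP-KO RT libraries were at 8.06 and 5.03 scaled TPM, and the IL1RAP-KO value was -0.61 without replicate 2 and -1.20, then called lower, without replicate 1. SESN1, a sestrin that restrains mTOR signalling, had values from -0.33 to -0.12.

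GDF15 and SUSD6, which encode a secreted and a membrane protein, were both called in WT cells, and GDF15 also in both KO lines. GDF15 (ENSG00000130513; chromosome 19, 18374731 to 18389176), a stress-induced cytokine of the TGF-beta family, was at 22.3 and 19.98 scaled TPM in WT cells, 16.2 and 19.7 under the IL1R1-KO label and 18.8 and 17.99 in IL1RAP-KO cells. After 20 Gy it was at 80.9 and 77.3 in the WT RT libraries, 117 and 106 for IL1R1-KO RT and 90.1 and 55.8 for IL1RAP-KO RT, higher than any untreated library. The fold was 3.62, 5.96 and 3.71 in WT, labelled IL1R1-KO and IL1RAP-KO cells (log2 1.86, 2.58 and 1.89; standard error 0.19 for each; adjusted p = 4.5e-05, 4.2e-06 and 3e-05), the largest of the 36 targets in each genotype, and the IL1RAP-KO log2 value was 2.23 without RT replicate 2. SUSD6 (ENSG00000100647; chromosome 14, 69611596 to 69715144), a membrane protein with a sushi domain known as a growth-suppressing p53 target, was at 15.1 and 15.3 scaled TPM in WT cells, 10.6 and 12.1 under the IL1R1-KO label and 11.3 and 11.6 in IL1RAP-KO cells. Irradiated, it was at 40.4 and 42.2 in the WT RT libraries, 21.6 and 22.5 for IL1R1-KO RT and 21.97 and 14.3 for IL1RAP-KO RT. Both WT RT libraries were above 40 scaled TPM and the 4 irradiated KO libraries were at 22.5 or below. The log2 fold change of SUSD6 was 1.39 in WT cells, 0.90 under the IL1R1-KO label and 0.60 in IL1RAP-KO cells (standard error 0.16 for each; adjusted p = 0.00011, 0.0013 and 0.012), and the last of these was 0.89 without RT replicate 2.

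The levels were next compared between the knockout groups and WT, in irradiated and then in untreated cells. Both KO groups were compared with the same WT RT libraries. Between IL1RAP-KO RT and WT RT, SUSD6 was the 1 target called lower (background 2.08%) and none was called higher (background 0.804%; 6 at an unadjusted p under 0.05 in limma, background 13.8%). At an unadjusted p under 0.05, 7 were lower (background 17.5%). Between IL1R1-KO RT and WT RT no target was called higher (background 1.16%; 6 at an unadjusted p under 0.05, background 11.8%) or lower (background 1.95%; 4, background 14.8%). With a fold over 1.5, CDKN1A and GADD45A were the 2 higher targets (background 3.03%) and SUSD6 the 1 lower target (background 4.31%) in IL1R1-KO RT. In IL1RAP-KO RT none was higher (background 2.96%) and SUSD6, FDXR and BAX were the 3 lower targets (background 5.42%). The log2 fold change of SUSD6 was -1.17 in IL1RAP-KO RT (standard error 0.16, adjusted p = 0.0023) and -0.88 in IL1R1-KO RT (adjusted p = 0.0075, under the fold threshold). The IL1RAP-KO value without IL1RAP-KO RT replicate 2 was -0.88 (adjusted p = 0.0027) and not called, and with the 4 compared libraries fitted alone it had an adjusted p of 0.175. Scaled to nuclear protein-coding genes, both differences kept their sign (-0.89 and -0.53), with the medians of all genes at 0.24 and 0.31.

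CDKN1A was 1.76-fold higher in IL1R1-KO RT than in WT RT (log2 0.82, adjusted p = 0.013) and GADD45A 1.52-fold higher (log2 0.61, adjusted p = 0.016), both under the fold threshold. With TPM as deposited the CDKN1A difference was 1.09 and was called, while the median difference of all genes was 0.23 in that scaling. MDM2 differed in the other direction, at -0.44 (adjusted p = 0.018). With the nuclear protein-coding scaling it was at -0.08, where the median difference of all genes was 0.31. In IL1RAP-KO RT, CDKN1A differed by 0.23 and GADD45A by 0.46, or by 0.51 and 0.37 without replicate 2. FDXR at -0.74 and BAX at -0.67 were the next lowest after SUSD6 there, and without replicate 2 they were at -0.45 and -0.41. Without replicate 1 instead, 4 targets were called lower in IL1RAP-KO RT than in WT RT, namely SUSD6, FDXR, BBC3 and PHLDA3. FBXW7 at 0.57 and XPC at 0.54 were the highest with both libraries, under the fold threshold, and without replicate 2 they were at 0.33 and 0.33, below CDKN1A. The median difference of the 36 targets from WT RT was 0.10 for IL1R1-KO RT and -0.06 for IL1RAP-KO RT, with 0.00 for all genes in both.

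**Figure D3:**
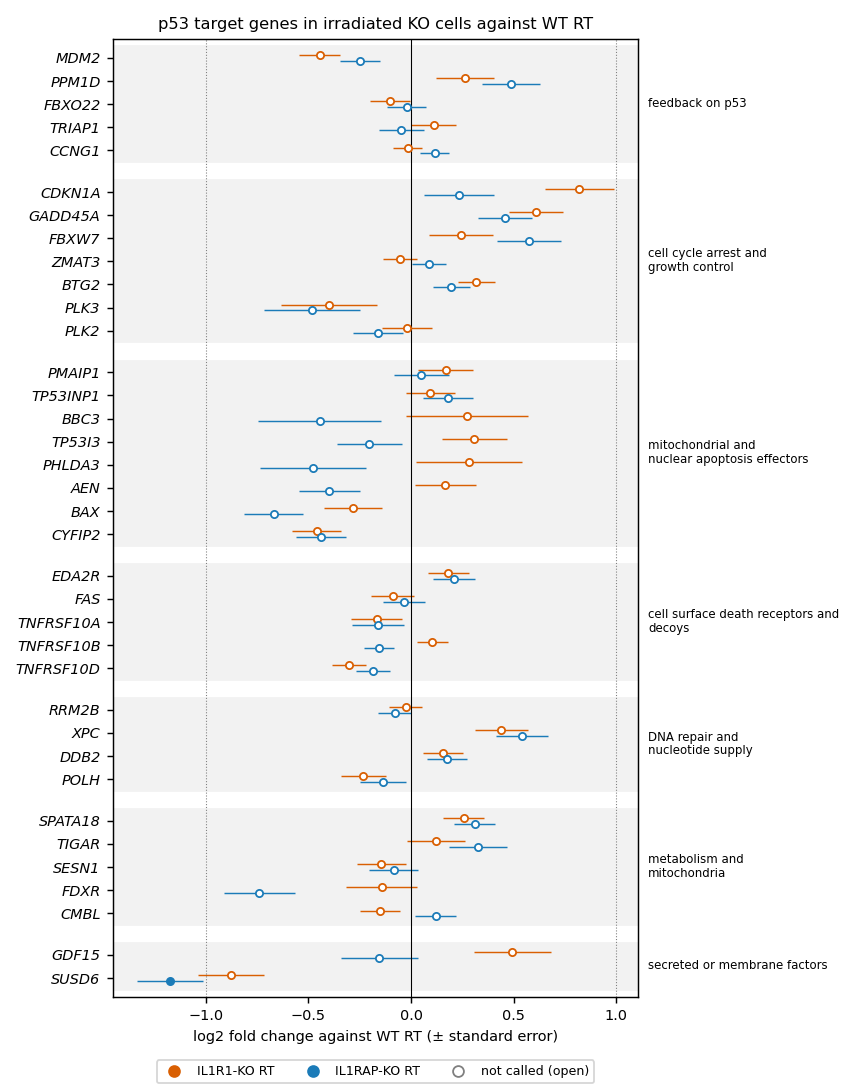
Log2 fold change of the 36 p53 target genes in each irradiated KO group against WT RT, by role, with the standard error as a bar; dotted lines mark a fold of 2. SUSD6 in IL1RAP-KO RT (-1.17) is the only filled, that is called, point, and CDKN1A in IL1R1-KO RT (0.82) is the highest.

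In untreated cells no target differed between a KO line and WT by the thresholds. In cells labelled IL1R1-KO, none was higher (background 0.0196%; 0 at an unadjusted p under 0.05 in limma, background 2.43%) and none lower (background 0.118%; 2, background 2.84%). In IL1RAP-KO cells none was higher (background 0%; 2 at an unadjusted p under 0.05, background 1.84%) and none lower (background 0.098%; 3, background 2.17%). SUSD6 had log2 differences of -0.39 and -0.38 from WT (adjusted p = 0.9 and 1), with 10.6 to 12.1 scaled TPM in the KO libraries and 15.1 and 15.3 in WT. CDKN1A differed by 0.19 and 0.02, and MDM2 by -0.11 in IL1RAP-KO cells. The median differences were -0.06 and -0.02.

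The response to RT itself was compared between genotypes as the interaction of genotype and RT, the log2 fold change in a KO line minus that in WT. For the IL1R1-KO label no target was called higher (background 0.503%; 5 at an unadjusted p under 0.05 in limma, background 6.96%) or lower (background 0.954%; 2, background 10.1%). For IL1RAP-KO cells none was called higher (background 0.157%; 4, background 7.08%) or lower (background 0.673%; 2, background 10.4%). In cells labelled IL1R1-KO the highest value was that of GADD45A (0.75, standard error 0.19, adjusted p = 0.069), followed by GDF15 (0.72, adjusted p = 0.2), CDKN1A (0.63, adjusted p = 0.21) and XPC (0.62, adjusted p = 0.11). GADD45A passed both thresholds with TPM as deposited (1.04), where 0.876% of all genes were called higher and the median of all genes was 0.23. SUSD6 had the lowest value in both lines, -0.49 and -0.79 (standard error 0.23, adjusted p = 0.32 and 0.13). For SUSD6 in IL1RAP-KO cells the value was -0.50 without RT replicate 2 and -1.08, then called, without RT replicate 1. GADD45A and GDF15 passed both thresholds for the IL1R1-KO label with the nuclear protein-coding scaling (1.11 and 1.08). There 2.68% of all genes were called higher and the median of all genes was 0.30.

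**Figure D4:**
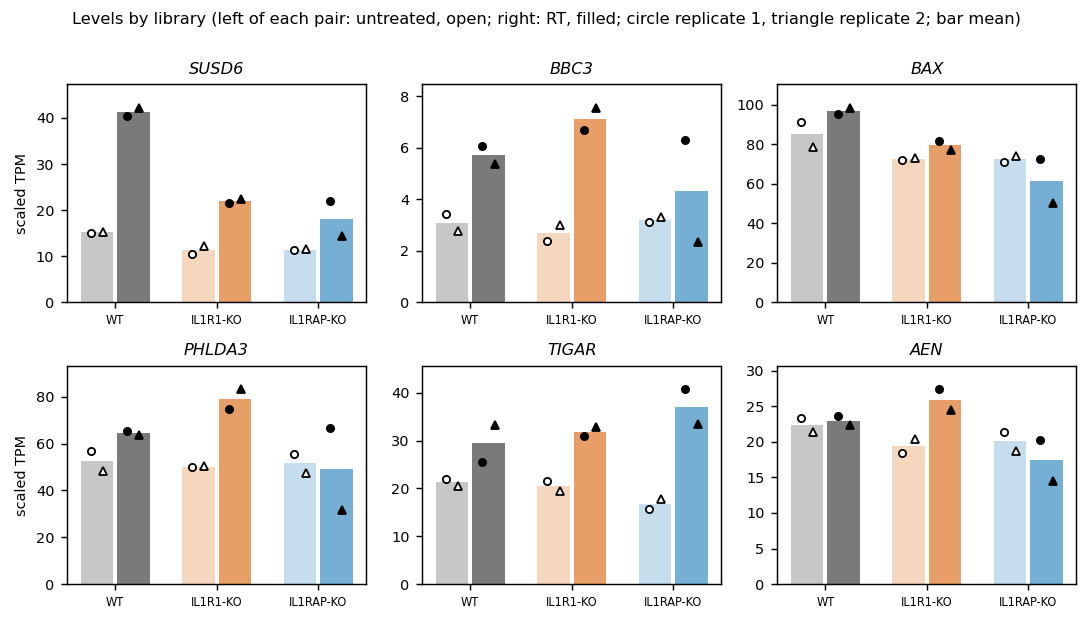
Scaled TPM in each library of 6 p53 target genes whose values rest on single libraries or differ between irradiated genotypes; pale bars are untreated, dark bars are after 20 Gy, and bars are means of 2 libraries. SUSD6 is above 40 in both WT RT libraries and at 14.3 to 22.5 in the irradiated KO libraries, and BBC3, PHLDA3 and AEN are lower in IL1RAP-KO RT replicate 2 (triangle) than in replicate 1.

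Regulators of p53 and further p53 targets were examined as lists. Of 23 regulators tested, none was called higher (background 6.57%) and 2 lower (background 7.21%) over the mean of the 3 genotypes. By genotype, in the order WT, IL1R1-KO and IL1RAP-KO, 1, 0 and 0 were higher (background 7.02%, 7.97% and 8.09%) and 1, 2 and 3 lower (background 6.23%, 8.35% and 9.33%). Those called lower over the mean were CHEK1 (-1.59), a checkpoint kinase, and RPL5 (-1.02), a ribosomal protein that binds MDM2. Scaled to nuclear protein-coding genes, RPL5 was at -0.68, so that CHEK1 alone was called lower. In that scaling 1 regulator was called higher over the mean (background 12%). By genotype, 2, 0 and 3 were called higher there (background 7.97%, 17.9% and 15.7%). RPL11 and USP7, the most abundant of the genes without a call, were at -0.47 and -0.59.

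Of 35 other p53 targets tested, 6 were called higher and 1 lower over the mean, and 6, 6 and 7 higher and 2, 0 and 1 lower in the 3 genotypes, against the same background shares. ATF3, a stress-induced transcription factor, had a log2 fold change of 3.80, from at most 2.76 scaled TPM untreated to at least 11.1 after RT. KLF4, also a transcription factor, was at 2.34, TRIM22, an antiviral protein, at 1.85, and TNFRSF10C, a TRAIL decoy receptor, at 1.41. PERP, a desmosomal protein, and SFN, the cell cycle inhibitor 14-3-3 sigma, had the highest levels of the genes without a call, at 0.91 and -0.22. For SFN the sign turned to 0.12 with the nuclear protein-coding scaling. Between IL1R1-KO RT and WT RT, 2 of the 35 were called higher (background 1.16%) and 1 lower (background 1.95%). In IL1RAP-KO RT 1 was higher (background 0.804%) and 2 were lower (background 2.08%). ATF3 was called higher in both, at 1.39 and 1.34 (adjusted p = 0.038 and 0.041 in limma). Its levels were 11.1 and 18.4 scaled TPM in WT RT and 36.4 to 42.2 in the irradiated KO libraries. With TPM as deposited, none of the 35 was called higher in IL1RAP-KO RT.

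Among the 27 targets with a promoter entry, the 14 with a response element match had a median log2 fold change over the mean of the 3 genotypes of 0.64. Of these, 4 were called higher (background 6.57%). The 13 without a match had a median of 0.27 and 1 call, XPC. The ranges overlapped: CCNG1 had a match and was at -0.69, and SUSD6 had none and was at 0.96. In WT, labelled IL1R1-KO and IL1RAP-KO cells the medians were 0.63, 0.65 and 0.65 with a match and 0.22, 0.53 and 0.10 without. Targets called higher numbered 5, 5 and 5 with a match and 1, 2 and 2 without (background 7.02%, 7.97% and 8.09%). These medians and counts are a description of chosen genes, with no test.

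The level of all targets relative to the rest depended on how the libraries were scaled, and the mitochondrial share given above moved with RT. With TPM as deposited the median log2 fold change of the targets was 0.11 in WT cells, 0.60 under the IL1R1-KO label and -0.01 in IL1RAP-KO cells, and that of all genes was -0.21, 0.03 and -0.28. Scaled to nuclear protein-coding genes the targets were at 0.47, 1.03 and 0.70, and all genes at 0.10, 0.40 and 0.33. In each scaling and genotype the median of the targets was above that of all genes, while its sign in IL1RAP-KO cells was negative with TPM as deposited. The part of the mitochondrial share in these values was not tested. Without IL1RAP-KO RT replicate 2 the median in IL1RAP-KO cells was 0.44, and without replicate 1 it was 0.30.

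**Figure D5:**
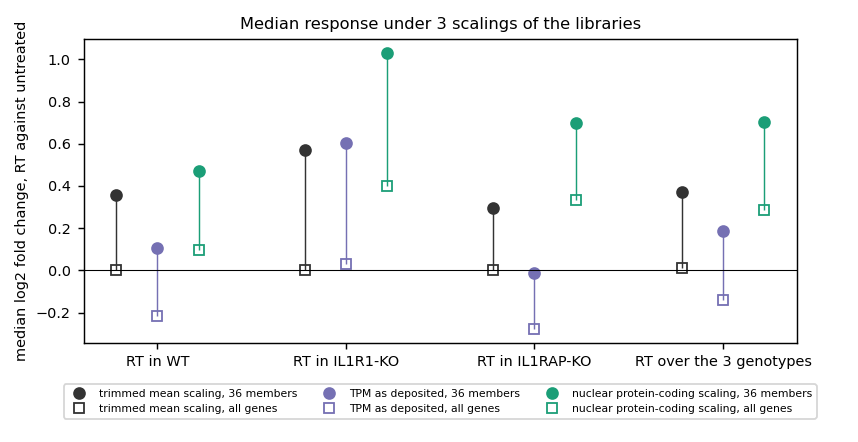
Median log2 fold change after RT of the 36 p53 target genes (filled circles) and of all genes tested (open squares) under 3 scalings of the libraries. The circle is above its square in every column, and the circle for IL1RAP-KO with TPM as deposited is at -0.01.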

How the data were processed

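Total RNA of 12 libraries was depleted of ribosomal RNA and sequenced as stranded, paired libraries. According to the submitters' processing notes and the study's methods, the tools were cutadapt 1.15 for trimming, STAR 2.5.3a for alignment to GRCh38 and HTSeq for counting. The authors deposited TPM with 2 decimals for 60675 genes. How gene lengths were chosen, and whether counting used strand, is not given in the sources used here. Read counts were not used here, so sequencing depth is unknown and counting intervals cannot be given. Single-library tables matched the joint table in 12 of 12 cases.

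The 36 members, their roles and the other lists (p53 regulators, other p53 targets, mitosis, mitochondrially encoded mRNAs, and mammary epithelial, fibroblast, leukocyte and endothelial markers) were chosen with earlier results of these data known. From these lists, 2 genes are not reported here. A minimum TPM of 1 in 2 or more libraries left 15303 genes for testing. TPM were scaled by unweighted trimmed means of M values (trim of 30% for M and 5% for A, at both ends). Values of log2(scaled TPM + 1) entered limma 3.58.1 (R 4.3.3) as 6 group means with a variance trend, which left 6 residual and 3.73 prior degrees of freedom. Calls needed a Benjamini-Hochberg adjusted p below 0.05 with more than a 2-fold change. P-values rest on the spread between the 2 libraries of a group, pooled over all 6 groups. A gene therefore has the same standard error in each genotype, whatever the spread of the libraries compared. The fit was tested on simulated data. Per-library values are given for members called in any of the 10 comparisons. Libraries with the same replicate number did not deviate together (correlation of their deviations -0.061 to 0.095 over 15 pairs of groups), and a block for it was fitted only as an alternative. Alternatives were TPM as deposited, scaling to nuclear protein-coding genes, a pseudocount of 0.1, no filter, a replicate block, the compared libraries fitted alone, a fold threshold of 1.5, and each library left out. Gene positions and exon overlaps came from GENCODE v44 (GRCh38), promoter entries from RefSeq.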

Additional observations from a re-analysis of the deposited data

How the results depend on the processing

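The 33 calls of single targets were recomputed under each alternative, giving 587 values, of which 567 kept the call, 20 lost it and none changed sign. The calls lost were those of MDM2, RRM2B, XPC and TIGAR with TPM as deposited, of CMBL and SUSD6 with the nuclear protein-coding scaling, of SUSD6 with the compared libraries fitted alone, and of MDM2, BBC3, RRM2B, XPC, TIGAR, EDA2R and SUSD6 without 1 library each. In WT, labelled IL1R1-KO, IL1RAP-KO cells and their mean, a fold threshold of 1.5 gave 14, 17, 16 and 16 targets higher and 2, 2, 3 and 3 lower after RT; it gave 2 higher and 1 lower in IL1R1-KO RT than in WT RT, and 3 lower in IL1RAP-KO RT. With TPM as deposited, 1 target was lower after RT in WT and over the mean, where 10.8% and 10.7% of all genes were called lower. In IL1RAP-KO cells 5 were higher (background 4.79%) and 3 lower (background 16.5%) in that setting. It also gave 1 higher in IL1R1-KO RT than in WT RT (background 2.44%) and 1 in its interaction (background 0.876%). With the nuclear protein-coding scaling, 18 targets under the IL1R1-KO label were higher and 0 lower, 15 higher in IL1RAP-KO cells and 13 over the mean, where 17.9%, 15.7% and 12% of all genes were called higher and the median of all genes was at 0.40, 0.33 and 0.29. The share of all genes called lower under the IL1R1-KO label was 3.7% there. In the same scaling 1 target was higher in IL1R1-KO RT than in WT RT (background 3.5%) and 2 in its interaction (background 2.68%). In IL1RAP-KO RT 0 were lower than in WT RT (background 1.51%), as also with the compared libraries fitted alone. Over the mean, that scaling called 11 rather than 6 of the other p53 targets higher (background 12%). It called 1 rather than 2 of the p53 regulators lower (background 3.82%) and 1 rather than 0 higher (background 12%).

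Leaving out each library in turn gave 7 to 8 targets higher in WT cells, 8 to 9 under the IL1R1-KO label and 6 to 10 in IL1RAP-KO cells (6 without IL1RAP-KO RT replicate 2, 10 without IL1RAP-KO replicate 2). Targets lower numbered 0 to 1 in IL1RAP-KO cells after RT, 0 to 4 in IL1RAP-KO RT against WT RT, and 0 to 2 in the IL1RAP-KO interaction. Each upper value was that without IL1RAP-KO RT replicate 1, where FDXR was lower after RT and SUSD6 and BBC3 had lower interactions; the 0 in IL1RAP-KO RT against WT RT was without replicate 2. The other counts did not change. The replicate block moved no count of targets by more than 1.5 times: it gave 7, 9 and 8 targets higher after RT, as without the block, and changed no other call. The fold threshold leaves smaller differences uncalled whatever their p, which does not show that levels were equal, and sequencing depth is unknown.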

Other observations

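Other genes that moved with RT were counted over the mean of the 3 genotypes. All 16 mitosis genes examined were called lower (background 7.21%), with a median log2 fold change of -3.83. Their summed level was 866 to 917 scaled TPM in untreated and 35.6 to 66.7 in irradiated libraries. Of 13 mitochondrially encoded mRNAs, 10 were called higher (background 6.57%) and none lower (background 7.21%). Of the 10 mammary epithelial markers, KRT5 at -1.22 and EPCAM at -1.82 were the 2 called lower (background 7.21%). None was called higher (background 6.57%). The summed level of the 10 went from 4558 to 5599 scaled TPM untreated to 2288 to 3985 after RT.

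Markers of other cell types were also examined. Of 7 fibroblast markers, COL1A2 was at 0 in all 12 libraries and DCN was called higher (1.49), and their sum was 17.9 to 23.01 scaled TPM untreated and 43.1 to 91.0 after RT. Of 6 leukocyte markers, 2 were tested. PTPRC reached at most 0.30 TPM and CD14 was called higher (1.53, background 6.57%). The sums were 9.99 to 23.4 and 32.6 to 81.3 scaled TPM, with CD14 alone at 5.65 to 20.2 and 25.8 to 75.7. Of 5 endothelial markers 3 were tested and none of these was called higher (background 6.57%) or lower (background 7.21%). CDH5 reached at most 0.29 TPM, and the sums were 3.30 to 5.05 and 7.46 to 11.0 scaled TPM. The part of these markers in the levels of the p53 targets was not tested.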
